A study of Homo sapiens with 4 samples.

Results

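Protein folding in the endoplasmic reticulum (ER) was read through 39 genes of ER chaperones, folding enzymes, ER-associated degradation and the unfolded protein response, out of 19775 genes read on the arrays. The members were chosen by symbol, each read, among the probe sets annotated to it alone, from the one brightest on average. On this rule 37 of the 39 could be read. PDIA5 and SYVN1 were not read, because their probe sets carry the name of a further gene. All 37 stood at or above 6 on the log2 scale on all 4 arrays, the floor used here for a measured gene, so that no member was lost to the filter on low values.

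The series compared 2 pairs of modified human colorectal cancer cell lines, with 1 Affymetrix array per line. From HCT116, a line of colorectal carcinoma, came the arrays HCT116-Vec and HCT116-CDX1. From LS174T, a line of mucin-secreting colon adenocarcinoma, came LS174T-siVec and LS174T-siCDX1. By their names, Vec and siVec were taken as vector controls, CDX1 as introduced CDX1 and siCDX1 as CDX1 lowered by RNA interference. CDX1 encodes a homeobox factor that directs intestinal differentiation. The constructs, the culture conditions, and whether each line was a clone or a pool are not given in the sources used here. With 1 array in each group there is no replicate of any line, no spread between cultures and no p-value, and this sets the precision of all values given.

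Secreted and membrane proteins enter the ER through the Sec61 channel, fold there with the help of Hsp70 and Hsp90 chaperones, lectin chaperones and disulfide isomerases, and leave for the Golgi in COPII vesicles. Proteins that fail to fold are returned to the cytosol and degraded. When unfolded proteins accumulate, the sensors IRE1 (gene ERN1), ATF6 and PERK raise the transcription of chaperone and degradation genes and slow translation. Mucin-secreting intestinal cells are known for a large secretory load and depend on this machinery.

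Many promoters of the family carry the ER stress response element, ERSE, in which the factor NF-Y binds CCAAT and ATF6 binds CCACG, 9 bases apart. A shorter form, ERSE-II, reads ATTGG, 1 base and CCACG. Both were searched on both strands of the RefSeq promoter windows of build GRCh38.p14, which run from 250 bases before to 50 bases after a transcription start. Of the 39 members 35 had such a window, those without being PDIA3, DERL1, DERL3 and SEC24D. ERSE was found for 8 of the 35, HSPA5, HSP90B1, CRELD2, PDIA6, ERO1B, CALR, CANX and XBP1, and for 25 of all 27305 genes with a window, or 0.0916%. ERSE-II was found for 3 of the 35, HYOU1, SDF2L1 and HERPUD1, and for 19 of all genes, or 0.0696%. The XBP1 element UPRE, spelled TGACGTGG, was found for DNAJC10 and HYOU1, against 0.927% of all genes. In HYOU1 the UPRE match overlaps an ERSE-II match. A match is a description of letters in the window, not of a bound site. None of the 6 matches shown overlaps another of the motifs searched. The stretches below are shown because these 6 genes are the regulated chaperone HSPA5, the 3 members that differed at least 2-fold in a comparison (SDF2L1, ERO1B and CALR), CRELD2, the next lowest after SDF2L1 in HCT116, and HERPUD1, the highest there. Each is written 5′ to 3′ on the strand of its gene, with the motif in capitals; where the motif lies on the opposite strand the capitals show its reverse complement.

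HSPA5 (ERSE, chr9:125241376-125241424, minus strand): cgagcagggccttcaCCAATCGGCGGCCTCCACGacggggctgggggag
CALR (ERSE, chr19:12938369-12938417, plus strand): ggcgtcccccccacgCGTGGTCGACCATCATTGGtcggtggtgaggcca
ERO1B (ERSE, chr1:236282168-236282208, minus strand): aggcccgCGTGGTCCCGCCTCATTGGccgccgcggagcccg
CRELD2 (ERSE, chr22:49918539-49918587, plus strand): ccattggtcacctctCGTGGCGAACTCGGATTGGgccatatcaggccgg
HERPUD1 (ERSE-II, chr16:56932010-56932050, plus strand): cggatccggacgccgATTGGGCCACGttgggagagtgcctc
SDF2L1 (ERSE-II, chr22:21642099-21642139, plus strand): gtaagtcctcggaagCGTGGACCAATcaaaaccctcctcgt

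The targeted gene was checked before the members. CDX1, read by 1 probe set, stood at 8.21 in HCT116-Vec, 8.24 on the array labelled HCT116-CDX1, 10.46 in LS174T-siVec and 9.06 in LS174T-siCDX1. It fell in LS174T-siCDX1 and differed by 0.02 in HCT116, so the HCT116 direction rests on the label; where that probe set lies relative to any introduced sequence is not given in the sources used here. All 8 epithelial markers were at or above 6 on every array. Leukocyte markers reached 6 for 4 or 5 of the 6 read, fibroblast markers for 6 of 7 and endothelial markers for 4 of 6, at median levels between 6.57 and 7.35. Across 18 probe sets of bacterial hybridisation controls spiked in at set amounts, the largest difference was 0.349 in the HCT116 pair, 0.170 in the LS174T pair and 0.356 between the vector arrays, which gives a scale for array noise but not for the spread between cultures. Below, "rose" and "fell" are used of differences of at least 1 on the log2 scale, which is 2-fold. Where 4 levels follow a gene, they are log2 levels in the order HCT116-Vec, HCT116-CDX1, then LS174T-siVec, then LS174T-siCDX1.

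**Figure D1:**
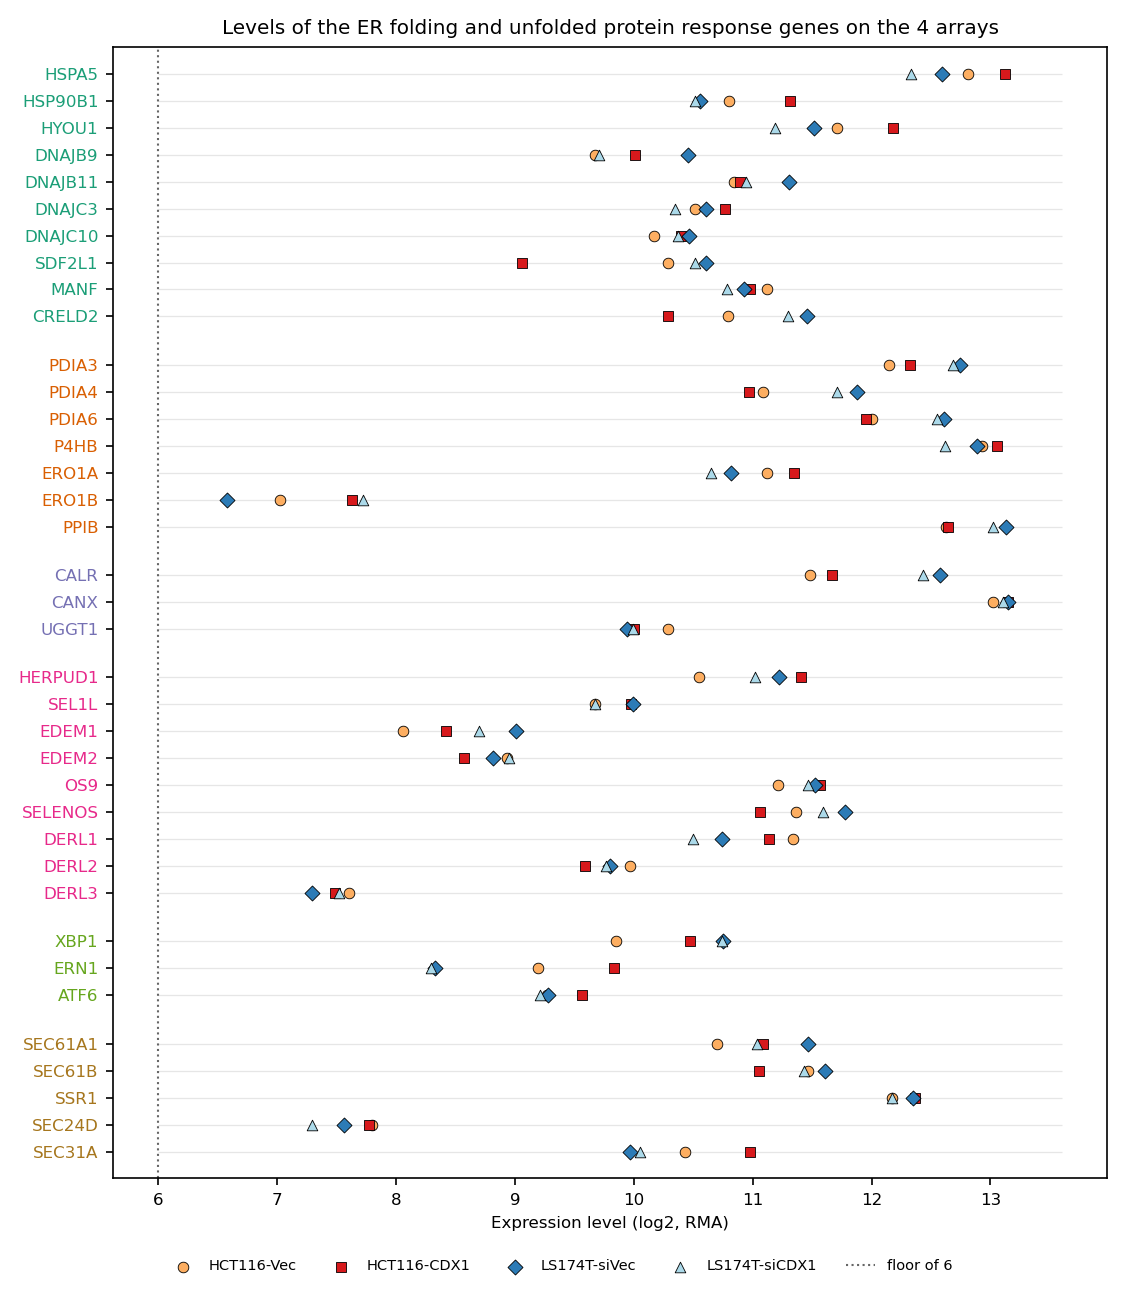
Expression level (log2, horizontal axis) of the 37 members read, 1 row per gene and 1 symbol per array, grouped and coloured by role. All symbols lie right of the floor of 6 (dotted line); SDF2L1 is lowest on the array labelled HCT116-CDX1, at 9.06, and levels of different genes are not comparable on such arrays.

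The first comparison set the array labelled HCT116-CDX1 against HCT116-Vec, to ask which of these genes differ where CDX1 was introduced. Most members were slightly higher on the array labelled HCT116-CDX1, while the BiP cofactor gene SDF2L1 fell. In the probe sets used, HERPUD1, the sensor gene ERN1 and XBP1 were the highest, but their other probe sets gave less, from -0.27 to 0.21. Of the 37 members 0 rose, against 0.916% of the 16914 genes measured in this pair, and 1 fell, against 0.970%. The share past 2-fold was 2.70% of members and 1.89% of all measured genes, and 36 members stayed under it. By that count the members stood near the background. In sign, 24 members lay above 0, against 49% of all measured genes, and the median difference of the members was 0.18, beside -0.0073 over all measured genes. Without probe sets ending in _x_at or _s_at, marked as possibly shared between transcripts, the median of the 29 members left was 0.047. Beyond the largest spike-in difference, 10 members were higher, or 27.0%, against 9.54% of all genes, and 5 were lower, against 15.1%.

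Among the Hsp70 and Hsp90 chaperones and their partners, 7 of 10 lay above 0, with a median of 0.24. HSPA5, which encodes BiP, the main Hsp70 of the ER, stood at 12.81, 13.12, 12.59 and 12.33. HYOU1, a large Hsp70 that exchanges nucleotide on BiP, stood at 11.71, 12.18, 11.52 and 11.19. HSP90B1, which encodes GRP94, the Hsp90 of the ER, stood at 10.80, 11.32, 10.55 and 10.52. All 3 were highest on the array labelled HCT116-CDX1 and lowest in LS174T-siCDX1. The differences in HCT116 were 0.31 for HSPA5, 0.47 for HYOU1 and 0.52 for HSP90B1, each under 2-fold. The second probe set gave 0.049 for HSPA5 and 0.17 for HSP90B1.

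The J-proteins hand clients to BiP and stimulate its ATPase. DNAJB9 was higher by 0.34 in HCT116, and its 3 probe sets ran from 0.24 to 0.63. DNAJC3 was higher by 0.25, with 4 probe sets from 0.17 to 0.36. DNAJC10, a J-protein with disulfide reductase activity, differed by 0.23, but its 5 probe sets ran from -0.10, in one under 6 on both arrays, to 0.23, and DNAJB11 differed by 0.05. Thus DNAJB9 and DNAJC3 had the same sign in every probe set, and DNAJC10 did not.

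In the same role SDF2L1, CRELD2 and MANF lay below 0. SDF2L1, a component of BiP complexes with J-proteins, stood at 10.29, 9.06, 10.61 and 10.51. It fell by 1.23 on the log2 scale, or 2.35-fold, on the array labelled HCT116-CDX1, and both LS174T levels lay above that of HCT116-Vec, by up to 0.32. SDF2L1 was read by 1 probe set, of the kind marked as possibly shared between transcripts, so no other probe set on the array could be set beside it. CRELD2, an ER-resident protein induced by ER stress, stood at 10.79, 10.29, 11.46 and 11.30, a difference of -0.50 in HCT116. MANF, a secreted ER stress-inducible factor, differed by -0.15, inside the range of the spike-ins. The promoters of SDF2L1 and CRELD2 printed above hold an ERSE-II and an ERSE match, as do those of HERPUD1, HYOU1 and HSPA5, which were higher.

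The sensor genes ERN1 and ATF6 and the factor gene XBP1 all lay above 0, with a median of 0.62. ERN1, the kinase and RNase that splices XBP1 mRNA, stood at 9.19, 9.84, 8.33 and 8.30 and was 0.65 higher on the array labelled HCT116-CDX1. XBP1, the transcription factor made from that spliced mRNA, stood at 9.85, 10.47, 10.75 and 10.74 and was 0.62 higher. The array levels do not separate spliced from unspliced XBP1. ATF6, the membrane-bound transcription factor cleaved in the Golgi under stress, stood at 9.27, 9.56, 9.28 and 9.21.

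For ATF6 the rule chose the probe set with the smallest difference, 0.29. All 4 of its probe sets were higher on the array labelled HCT116-CDX1, up to 0.92, with a mean of 0.62. For ERN1 the 3 probe sets ran from -0.27 to 0.65, with a mean of 0.19, and for XBP1 the second gave 0.074. ATF6 thus gave the more even reading of the 3, although no probe set of it passed 2-fold.

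The genes of ER-associated degradation were mixed, with 4 of 9 above 0 and a median of -0.11. HERPUD1, a membrane protein that organises the degradation complex, stood at 10.55, 11.41, 11.22 and 11.02 and had the highest difference of any member in HCT116, 0.86. Its second probe set, at lower levels of 7.32 and 7.10, gave -0.23, so the 2 readings had opposite signs. SEL1L, the partner of the SYVN1 ubiquitin ligase, was higher by 0.31, and its 4 probe sets ran from 0.22 to 0.46. EDEM1, which trims mannose from misfolded glycoproteins, was higher by 0.36 and OS9, a lectin that delivers them, by 0.35. Lower were DERL2 at -0.38, EDEM2 at -0.36, SELENOS at -0.30, DERL1 at -0.20 and DERL3 at -0.11, and the second probe set of DERL2 gave 0.40.

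The disulfide isomerases and related folding enzymes differed little in HCT116, with 5 of 7 above 0 and a median of 0.13. ERO1B, an oxidase that recharges disulfide isomerases, was higher by 0.61, with 0.18 in its second probe set, and ERO1A, the more widely expressed form, by 0.23. PDIA3 differed by 0.18, P4HB by 0.13, PPIB by 0.016, PDIA6 by -0.050 and PDIA4 by -0.12, all within the range of the spike-ins in the probe sets used. The other probe sets of PDIA3 gave 0.26 and 0.65, and those of P4HB 0.29 and 0.37, so that 1 of each gene lay beyond that range. In the lectin cycle, in which calnexin and calreticulin bind glycoproteins until UGGT1 finds them folded, CALR differed by 0.18, CANX by 0.13 and UGGT1 by -0.29. Among translocation and export genes, the COPII coat gene SEC31A was higher by 0.55, with 0.60 in its second probe set, and the channel subunit gene SEC61A1 by 0.39. SSR1, of the translocon-associated complex, differed by 0.19 and the COPII coat gene SEC24D by -0.020. SEC61B, the small channel subunit, differed by -0.42, and a second probe set, under 6 on both arrays, by 0.33.

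Epithelial markers moved with this comparison too: 7 of 8 lay above 0 on the array labelled HCT116-CDX1, with a median of 0.30, and 1 rose. Of the measured leukocyte markers 3 of 4 lay above 0, with a median of 0.048. The part of these shifts in the members' differences was not tested.

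**Figure D2:**
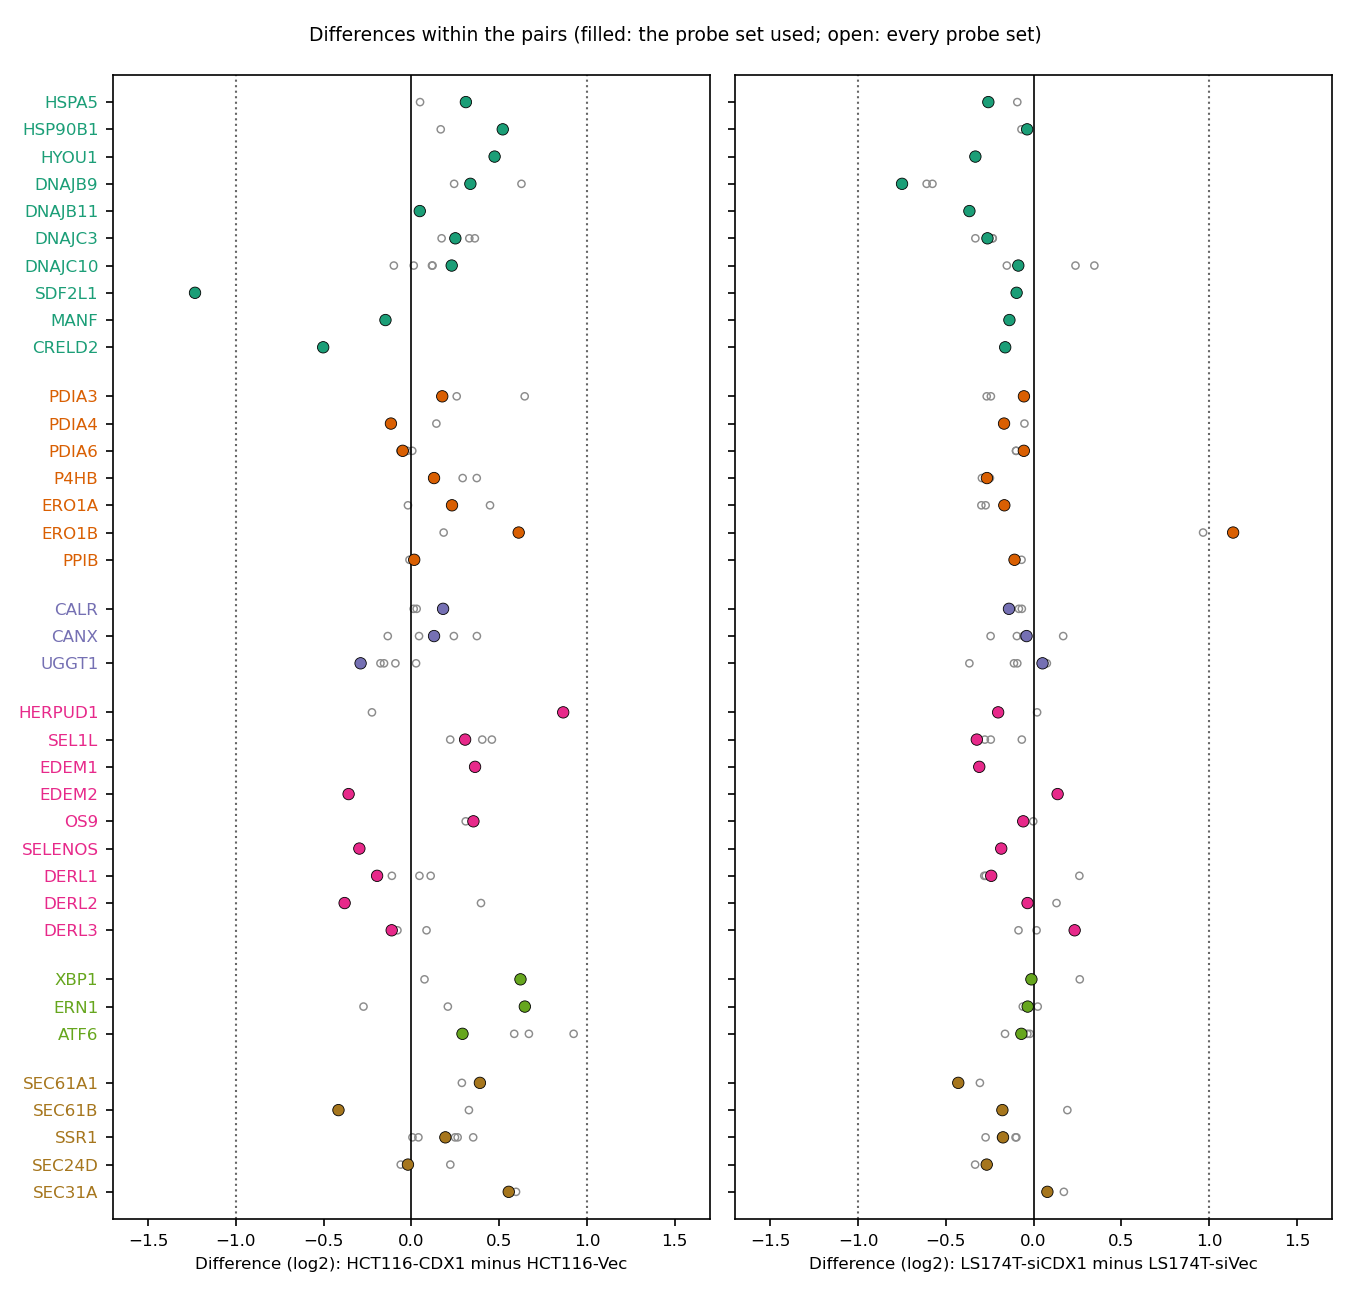
Difference within each pair (log2, horizontal axis; modified minus vector array) for the 37 members, 1 row per gene, with the probe set used as a filled point and every probe set as an open one; dotted lines mark 2-fold. SDF2L1 in HCT116, at -1.23, and ERO1B in LS174T, at 1.14, are the filled points beyond the lines.

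The second comparison set LS174T-siCDX1 against LS174T-siVec, to ask which of these genes differ where CDX1 was lowered. The members lay slightly lower in LS174T-siCDX1, with DNAJB9 and SEC61A1 the lowest, while ERO1B rose. Of the 37 members 1 rose, against 0.598% of the 16896 genes measured in this pair, and 0 fell, against 1.25%. The share past 2-fold, 2.70% of members and 1.85% of all genes, again stood near the background. In sign, 32 of 37 lay below 0, against 51.2% of all measured genes, with a median of -0.14, beside -0.0058 over all measured genes. The members above 0 were 5 as deposited, 12 after quantile normalization of the 4 arrays and 11 after a loess on the mean level was removed, so part of the count in sign depends on how the arrays were scaled. The median was then -0.062 and -0.075, with all genes at 0.021 and -0.0019. As deposited, 15 members were lower beyond the largest spike-in difference of this pair, or 40.5%, against 20.9% of all genes. Beyond it 2 were higher, against 18.8%. After quantile normalization, DNAJC3, HERPUD1, SELENOS, DERL1, SEC61B and SSR1 of these 15 lay from -0.168 to -0.070, inside that as-deposited range. EDEM2 then lay above the range, at 0.184, so these counts too depend on how the arrays were scaled.

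ERO1B stood at 7.02, 7.63, 6.58 and 7.72. It was lowest in LS174T-siVec and rose by 1.14, or 2.20-fold, in LS174T-siCDX1. Its second probe set gave 0.97, from 6.12 to 7.09, and the mean of the 2 was 1.05. The levels of 6.58 and 6.12 in LS174T-siVec lay under the median of the leukocyte markers on that array, 7.02. Among those markers PTPRC read 6.51 and MS4A1 6.58, but CD3D 7.46 and CD3E 7.84. The size of the ERO1B difference is therefore uncertain. ERO1A, at 11.12, 11.35, 10.82 and 10.65, differed by -0.17, and its 3 probe sets ran from -0.30 to -0.17. The 2 oxidase genes therefore had opposite signs in LS174T, and the same sign in HCT116 in the probe sets used.

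All 10 chaperone and partner genes lay below 0 in LS174T-siCDX1, with a median of -0.21. DNAJB9 stood at 9.67, 10.01, 10.46 and 9.71, so that LS174T-siVec was the highest of the 4 arrays. It differed by -0.75 in the LS174T pair, with 3 probe sets from -0.75 to -0.58. DNAJB11, a soluble J-protein that binds nascent clients, differed by -0.37, HYOU1 by -0.33, and HSPA5 and DNAJC3 each by -0.26. The 4 probe sets of DNAJC3 ran from -0.33 to -0.23. HSP90B1, DNAJC10, SDF2L1, MANF and CRELD2 lay between -0.16 and -0.037, inside the range of the spike-ins. After quantile normalization HSP90B1, DNAJC10 and SDF2L1 lay above 0, as did HSP90B1 with the loess removed.

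Of the degradation genes 7 of 9 lay below 0 and of the translocation and export genes 4 of 5. SEL1L differed by -0.32, with 4 probe sets from -0.32 to -0.067, and EDEM1 by -0.31. HERPUD1 differed by -0.20, DERL1 by -0.24 and SELENOS by -0.18, while DERL3 was at 0.23 and EDEM2 at 0.14. Other probe sets gave 0.020 for HERPUD1, -0.28, -0.27 and 0.26 for DERL1, and -0.086 and 0.017 for DERL3. SEC61A1 stood at 10.70, 11.09, 11.46 and 11.03 and differed by -0.43, with -0.31 in its second probe set. SSR1 differed by -0.17, and its 6 probe sets ran from -0.27 to -0.098. Among folding enzymes P4HB, the founding protein disulfide isomerase, differed by -0.27, with 3 probe sets from -0.29 to -0.25. XBP1 and the sensor genes hardly differed in the probe sets used, at -0.012 for XBP1, -0.034 for ERN1 and -0.070 for ATF6. The second probe set of XBP1 gave 0.26, beyond the range of the spike-ins. The XBP1 probe set used lay above 0 after quantile normalization, at 0.079, and with the loess removed, at 0.048.

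All 8 epithelial markers lay below 0 in LS174T-siCDX1, with a median of -0.72, and 2 of them fell. All 5 measured leukocyte markers lay above 0, from 0.094 to 0.49, with 5 of 6 genes at or above 6 on both LS174T arrays, and so did all 4 measured endothelial markers, with a median of 0.080. Their part in the members' differences in LS174T was not tested.

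Set side by side, the pairs share no array. In the members, 22 of 37 were higher on the array labelled HCT116-CDX1 and lower in LS174T-siCDX1, the direction in which both follow CDX1 by label, against 23.5% of the 16530 genes measured in both pairs. A further 10 members, or 27.0%, lay below 0 in both pairs, against 28.0% of all genes. Above 0 in both were 2 members, against 25.3%, and 3 were lower in HCT116 and higher in LS174T, against 23.2%. The 22 included 7 of 10 chaperone genes and ERN1, ATF6 and XBP1. In the probe sets used, the LS174T differences of these last 3 lay inside the range of the spike-ins. XBP1 lay above 0 in LS174T in its second probe set, after quantile normalization and with the loess removed. The count of 22 became 18 after quantile normalization and 17 after the loess, where all genes gave 21.6% and 24.6%. Of the 22 no member reached 2-fold in either pair. ERO1B and SEC31A were the 2 above 0 in both.

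Probe sets gave a further view of how even the readings were. Of 27 members with several probe sets at or above 6, all readings had the same sign for 16 in the HCT116 pair, against 54.5% of genes with several probe sets, and for 18 in the LS174T pair, against 51.6%. HSPA5, HSP90B1, DNAJB9, DNAJC3, SEL1L, SEC61A1, SSR1, P4HB, PDIA3, CALR, OS9 and ATF6 had every such probe set higher on the array labelled HCT116-CDX1 and lower in LS174T-siCDX1. No share of all genes alike in both pairs is given here, so whether this list is longer than that share cannot be told. The LS174T values of OS9 were only -0.059 and -0.002. In the probe sets used, HSP90B1 and OS9 lay above 0 in LS174T after quantile normalization and with the loess removed, and PDIA3 with the loess removed. Probe sets of a gene share the RNA of the array and are not replicates.

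**Figure D3:**
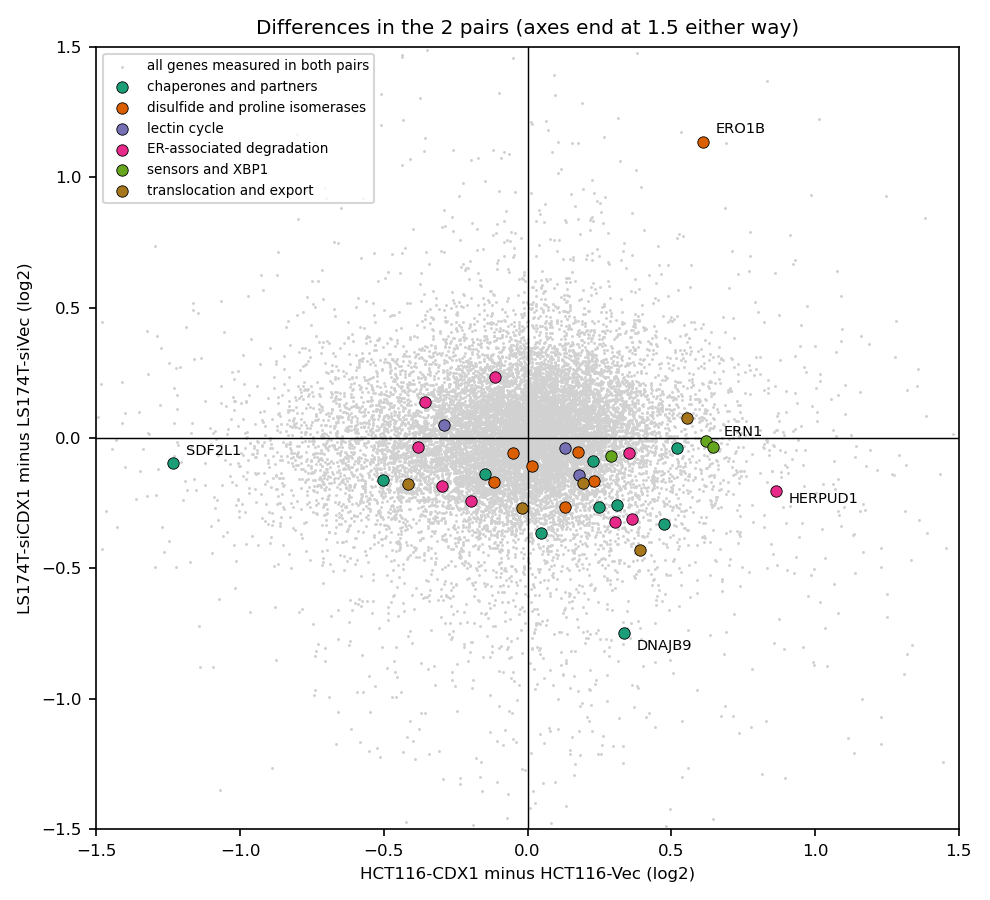
Difference in the HCT116 pair (log2, horizontal axis) against the difference in the LS174T pair (log2, vertical axis), with members coloured by role and all genes measured in both pairs in grey. The axes end at 1.5 either way. The lower right quadrant holds 22 of the 37 members, and ERO1B, SDF2L1 and DNAJB9 stand away from the rest.

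The 11 members with ERSE or ERSE-II had a median difference of 0.31 in HCT116 and -0.097 in LS174T, and ran from -1.23 to 0.86 and from -0.33 to 1.14. The 22 members read that had a window and neither motif had medians of 0.21 and -0.17. In the probe sets used, SDF2L1, ERO1B and CALR, the 3 members that passed 2-fold in any comparison, all belong to the group with a motif. That group holds 11 of the 35 members with a window. With the mean of all probe sets PDIA3, which has no window, also passed, at 1.05 between the vector arrays. Without shared probe sets PDIA4, which has a window and neither motif, passed there at 1.07, and SDF2L1 was not read. The members were known when this was looked at, and no test was made.

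The third comparison set LS174T-siVec against HCT116-Vec, to ask how the lines differ at baseline. It shares LS174T-siVec with the second comparison and HCT116-Vec with the first, so a low or high reading on either array enters both. CALR and several disulfide isomerase genes were higher in LS174T-siVec, and ERN1 was lower. Of the 37 members 1 rose, against 6.03% of the 17043 genes measured on these arrays, and 0 fell, against 7.33%. The share past 2-fold was 2.70% of members and 13.4% of all genes. The median was 0.14, beside 0.0070 over all genes, and 22 of 37 lay above 0, against 50.8%. Without probe sets ending in _x_at or _s_at the median was 0.0025 and 15 of 29 lay above 0. Beyond the largest spike-in difference 13 members were higher, against 19.7% of all genes, and 4 lower, against 21.9%. All probe sets at or above 6 had the same sign for 16 of 27 members, or 59.3%, against 59.2% of genes. Of the epithelial markers 3 of 8 rose and 1 fell, with a median of 0.49. Of 5 measured leukocyte markers 1 rose, LYZ, which read 4.97 in HCT116-Vec and 11.25 in LS174T-siVec. The part of these markers in the members' differences between the lines was not tested.

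CALR, the soluble calcium-binding lectin chaperone of the ER, stood at 11.48, 11.66, 12.58 and 12.44. Both LS174T arrays were higher than both HCT116 arrays. It rose by 1.09, or 2.13-fold, in LS174T-siVec, and its 3 probe sets ran from 0.86 to 1.498. Its membrane-bound relative CANX differed by 0.13, and UGGT1 by -0.35 with probe sets on both sides of 0.

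PDIA4 stood at 11.08, 10.97, 11.88 and 11.71, a difference of 0.79, and its second probe set gave 1.07. PDIA3, the isomerase that works with calnexin and calreticulin, stood at 12.15, 12.32, 12.74 and 12.69, a difference of 0.59, with probe sets up to 1.42 and a mean of 1.05. PDIA6, at 12.003, 11.95, 12.61 and 12.55, differed by 0.61 with 4 probe sets from 0.61 to 0.89. PPIB, the ER cyclophilin that speeds proline isomerisation, differed by 0.50 and 0.75. For these 4 genes each probe set was higher in LS174T-siVec. P4HB differed by -0.042, ERO1A by -0.30 and ERO1B by -0.44, so the folding enzymes did not all go one way. The other probe sets of P4HB and ERO1A lay above 0, from 0.21 to 0.35.

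In the other roles, DNAJB9 was higher in LS174T-siVec by 0.79, CRELD2 by 0.67, DNAJB11 by 0.46, EDEM1 by 0.95 and SEC61A1 by 0.77. EDEM1, with 1 probe set, stood at 8.06, 8.42, 9.01 and 8.70. XBP1 was higher by 0.90 and ERN1 lower by 0.86 in the probe sets used, whereas their other probe sets lay between -0.27 and 0.11. HSPA5, HSP90B1 and HYOU1 lay between -0.24 and -0.19, and MANF at -0.20. DERL1 differed by -0.60, with 3 of 4 probe sets from -0.93 to -0.60, and SEC31A by -0.46.

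**Figure D4:**
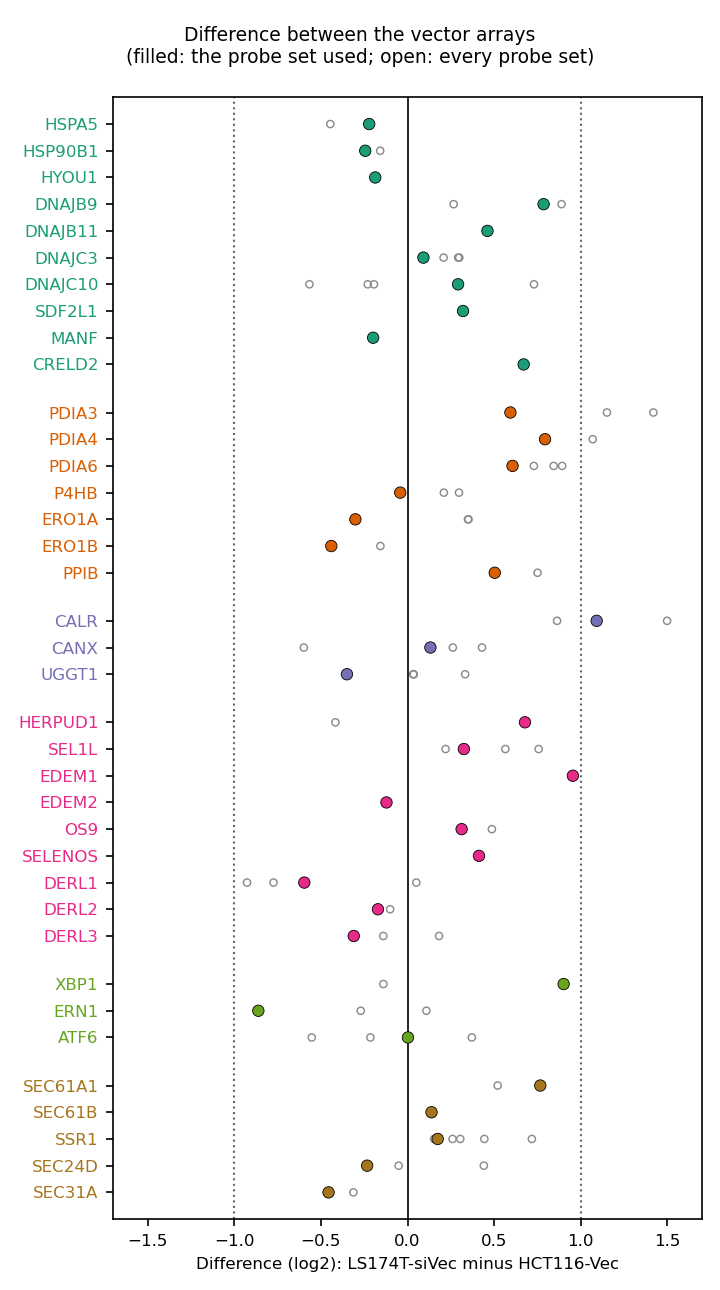
Difference between the vector arrays (log2, horizontal axis; LS174T-siVec minus HCT116-Vec) for the 37 members, with the probe set used filled and every probe set open; dotted lines mark 2-fold. CALR, at 1.09, is the filled point beyond the lines, and PDIA3, PDIA4, PDIA6 and PPIB have every probe set to the right of 0.

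Further genes of the pathway were listed by function. In the list of other sensors and the PERK arm, 2 of 15 rose on the array labelled HCT116-CDX1, against 0.916% of all measured genes. Of the 15, 0 fell, against 0.970%, and 11 lay above 0, against 49%, with a median of 0.28. They were DDIT3, which encodes the stress factor CHOP, at 8.75, 9.78, 8.52 and 8.34, a difference of 1.03, and TRIB3, a pseudokinase induced by it, at 10.60, 11.73, 11.82 and 11.45, a difference of 1.13. The second probe set of TRIB3 gave 1.31. In LS174T-siCDX1, 0 of the 15 passed 2-fold, against 1.85% of all measured genes, and 12 lay below 0, against 51.2%, with a median of -0.18.

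The remaining ER lists held few genes past 2-fold, where 1.89% of all measured genes passed it in HCT116 and 1.85% in LS174T. In HCT116, 0 of 23 other folding genes, 0 of 15 other degradation genes, 0 of 24 genes of translocation and glycosylation and 0 of 21 genes of ER-Golgi transport passed it, with medians of -0.059, 0.099, -0.087 and -0.0070. In LS174T-siCDX1, 1 gene of these lists rose, with medians of -0.076, -0.16, -0.12 and -0.16. It was LMAN1, the lectin receptor that carries glycoproteins from the ER to the Golgi, at 12.11, 12.25, 9.84 and 11.74. LS174T-siVec alone was low, and the 3 probe sets gave 1.85 to 2.01. Against HCT116-Vec, which shares that low array with the pair, LMAN1 fell by 2.27. Between the vector arrays AGR2, a disulfide isomerase of mucin-secreting cells, rose, reading 6.25 in HCT116-Vec and 13.52 in LS174T-siVec, with 2.48 in its second probe set. As 6.25 lay under the median of the leukocyte markers on that array, 6.57, no size is given for the brighter probe set. TRIB3 rose by 1.23 and TMX4 by 1.17, the latter with other probe sets at 0.36 and, under 6 on both arrays, at -0.30. CLGN, a calnexin relative, read 6.46 in HCT116-Vec and 4.02 in LS174T-siVec. It passed the filter through HCT116-Vec alone, and no size is given.

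Chaperones outside the ER lay mostly below 0 in HCT116. Of 24 measured cytosolic and mitochondrial chaperone genes, 23 lay below 0 on the array labelled HCT116-CDX1, against 51% of all measured genes, with a median of -0.33, where the ER chaperone genes had a median of 0.24. Of the 24, 2 fell, or 8.33%, against 0.970% of all measured genes, and 22 differed by less than 2-fold. Those that fell were HSPA14, at -1.25, and HSPE1, the mitochondrial co-chaperonin, at -1.07. The 3 probe sets of HSPA14 ran from -1.25 to -0.28, with a mean of -0.64, under 2-fold, and HSPE1 had 1, at -0.996 after quantile normalization and -0.958 with the loess removed, both just under 2-fold. In LS174T-siCDX1, 20 of 24 lay below 0, against 51.2% of all measured genes, with a median of -0.089. Past 2-fold were 0 of the 24, against 1.85% of all measured genes. The count below 0 was 15 of 24 both after quantile normalization and with the loess removed.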

How the data were processed

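Total RNA (2 µg per sample) was labelled as biotinylated cRNA, per the labels' protocols. The deposited values were log2 expression that the authors obtained with RMA, per the submitters' processing notes, which subtracts background, equalises array distributions and summarises each probe set; its version, and which arrays were normalised together, are not given in the sources used here. Values of 54675 probe sets ran from 3.20 to 14.6 and were used as deposited. Of these, 41097 named 1 gene in the platform annotation, while 1801 listed several and were left unnamed.

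Differences were taken within each pair and between the vector arrays. A gene was measured at 6 or more in the brighter array, and called at 2-fold. Of the lists beyond the members, up to 3 genes per list and comparison were named, those past 2-fold with the largest difference. The 39 members and the lists were chosen with earlier results of these data known. The alternatives tried were 1.5-fold and 3-fold, averaging all probe sets of a gene, dropping those ending in _x_at or _s_at, a floor of 7 or none, equal medians, quantile normalization and removal of a loess (span 0.3). Calls and scaling steps were tested on simulated data. Python 3.11.15, numpy 2.4.6, pandas 2.3.3 and statsmodels 0.14.6 were used.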

Additional observations from a re-analysis of the deposited data

Results flagged for a closer look

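Among the members and the other ER and chaperone genes past 2-fold in at least 1 line, markers left aside, 5 had opposite signs in the 2 lines once both were turned to the direction of CDX1 by label, with 1 array per group and the difference between the lines not tested. Such genes lie above 0 in both pairs, as 25.3% of all genes measured in both did, or below 0 in both, as 28.0% did. DDIT3 and TRIB3, also past 2-fold in HCT116, followed CDX1 by label in both pairs. In LS174T, TRIB3 was at -0.37 and DDIT3, with 1 probe set, at -0.176, just past the largest spike-in difference of 0.170. After quantile normalization DDIT3 was at -0.139, inside that as-deposited range. ERO1B was higher by 0.61 on the array labelled HCT116-CDX1 and by 1.14 in LS174T-siCDX1, where CDX1 was lowered. Its level in LS174T-siVec lay under the median of the leukocyte markers there, so the size of the latter difference is uncertain. HSPA14 was at -1.25 in HCT116 and -0.40 in LS174T in the probe set used. Its other probe sets gave -0.28 and -0.41 in HCT116. In LS174T they gave -0.071 and -0.14, inside the range of the spike-ins. For the other 3 genes the smaller value lay inside the range of the spike-ins in the probe set used. SDF2L1 was at -1.23 and -0.097, and HSPE1 at -1.07 and -0.054. The LS174T value lay above 0 for both after quantile normalization, and for HSPE1 also with the loess removed, so that their signs were then no longer opposite. LMAN1 was at 0.14 in HCT116 and 1.90 in LS174T, and its other probe sets gave 0.45 and 0.68 in HCT116, beyond the range of the spike-ins.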

How the results depend on the processing

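With 1 array per group, no setting tests stability between cultures, and no paired analysis was possible because each group has 1 array and the labels give no replicate numbers. Counts past 2-fold, medians and counts in sign stayed within 1.5 times the main count, or within the spike-in standard deviation of the pair, under the settings run, except as follows. At 1.5-fold, 4 members rose in the HCT116 pair, 1 fell in the LS174T pair, and 10 rose and 2 fell between the vector arrays. At 3-fold, 0 fell in HCT116, 0 rose in LS174T and 0 rose between the vector arrays. Without probe sets ending in _x_at or _s_at, 29 members remained to be read: 0 fell in HCT116, since SDF2L1 had no other probe set, the HCT116 median was 0.047 and the vector median 0.0025, 2 rose between the vector arrays, and 15 of 16 cytosolic chaperone genes lay below 0 in HCT116. With the mean of all probe sets 8 of 36 members lay above 0 in the LS174T pair, and 2 rose between the vector arrays. After quantile normalization 12 members lay above 0 in the LS174T pair and its median was -0.062, and with the loess removed 11 did. In the comparison where it passed 2-fold, no gene named as past it changed sign under any setting run, but with the mean of all probe sets HSPA14 was at -0.64 in HCT116, and TMX4, without shared probe sets, at 0.36 between the vector arrays. HERPUD1, under 2-fold, differed by -0.23 in HCT116 without shared probe sets, against 0.86.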

Other observations

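Beyond the members, 33 genes had an ERSE or ERSE-II match in their promoter window, and 24 of them were measured in each pair. In the HCT116 pair 10 lay above 0 and 14 below, with a median of -0.048 and 0 past 2-fold. In the LS174T pair 11 lay above 0 and 13 below, with a median of -0.022 and 0 past 2-fold. Between the vector arrays 1 rose and 1 fell, with a median of 0.017.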
